A study of Mus musculus with 6 samples.

Results

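Enamel matrix proteins and enamel proteases were followed through RNA sequencing of mouse dental epithelium with and without Pkm. The 8 genes were taken by name: Amelx, Ambn, Enam and Mmp20, which are used mainly while enamel matrix is secreted, and Odam, Klk4, Amtn and Odaph, which are used mainly when enamel matures. All 8 were found among the 24959 genes of the deposited table. The 6 libraries came from samples labelled dental epithelial cells at postnatal day 0. There were 3 controls, labelled wild type, and 3 samples labelled as PKM knockout and named conditional knockout, called Pkm cKO here. Pkm encodes muscle-type pyruvate kinase, an enzyme of glycolysis. The series asks what deletion of Pkm does to gene expression in the dental epithelium as teeth develop. The deleted exon, the Cre driver, the strain and whether tissue of several animals was pooled are not stated by the labels. The p-values therefore measure the spread between these samples.

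Enamel is made by ameloblasts, epithelial cells that first secrete a protein matrix and later break it down and remove it while mineral fills the space. Amelogenin (Amelx) makes up most of that matrix, with ameloblastin (Ambn) and enamelin (Enam) as the less abundant structural proteins, and the metalloprotease Mmp20 cuts them as they are laid down. In the maturation stage the serine protease Klk4 degrades the remaining matrix, while amelotin (Amtn) and Odam are placed at the cell surface facing the enamel. Odaph is a small secreted protein needed for maturation. Mutations in most of these genes cause amelogenesis imperfecta, an inherited defect of enamel. Amelx, Ambn, Enam, Amtn and Odam belong to the secretory calcium-binding phosphoprotein family, which arose by gene duplication.

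The members' promoters are shown first because 5 of them hold the same 7 letters at nearly the same place, among matrix and maturation proteins alike. The sequences are the 120 bases before the RefSeq start of each gene, from build GRCm38.p6, written 5′ to 3′ in the direction of the gene. The capitals mark TGATTGG, which holds an inverted CCAAT box, a common promoter element.
Amelx, chrX:169187210-169187329, minus strand: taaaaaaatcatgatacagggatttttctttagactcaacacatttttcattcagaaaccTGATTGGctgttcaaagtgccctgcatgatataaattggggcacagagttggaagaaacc
Ambn, chr5:88455871-88455990, plus strand: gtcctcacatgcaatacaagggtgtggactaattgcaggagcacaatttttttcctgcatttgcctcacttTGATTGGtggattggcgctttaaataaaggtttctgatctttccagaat
Enam, chr5:88487855-88487974, plus strand: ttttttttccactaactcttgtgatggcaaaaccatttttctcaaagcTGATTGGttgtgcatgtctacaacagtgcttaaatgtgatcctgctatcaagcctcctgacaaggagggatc
Amtn, chr5:88375988-88376107, plus strand: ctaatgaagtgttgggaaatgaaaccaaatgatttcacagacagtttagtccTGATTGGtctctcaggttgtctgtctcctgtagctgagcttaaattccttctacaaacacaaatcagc
Odam, chr5:87884890-87885009, plus strand: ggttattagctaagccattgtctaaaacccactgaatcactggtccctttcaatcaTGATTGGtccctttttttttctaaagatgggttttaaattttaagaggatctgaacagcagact

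The motif began 60 bases before the start in Amelx, 49 in Ambn, 72 in Enam, 68 in Amtn and 64 in Odam, each time in the direction of the gene. Over all 32851 promoter windows of 250 bases, 7.23% held TGATTGG on either strand, against 5 of the 8 members. It was not found in the windows of Mmp20, Klk4 and Odaph, of which Mmp20 and Klk4 had lower cKO levels without overlap, as the 5 genes with the motif did. The motif was picked after these windows had been read, and the 5 genes share ancestry, so the count is a description. Of the other family genes with a window, Ibsp, Mepe, Dmp1 and Spp1 held it too, the last pair in 1 of 2 windows each. Csn1s1, Csn2 and the related gene Sparc did not. The levels of Ibsp, Dmp1 and Spp1, given below, lay on both sides of 0 in log2 fold change. Another 5 motifs were searched on both strands. TAATTG (a homeobox core) was in Ambn and Odam and in 7.17% of all windows, and TGTGGT (the Runx core) was in Odam and Odaph and in 14% of all windows. TATAAA was in Amelx, Enam and Mmp20 and in 12.4% of all windows, while TAATCC (the Pitx type) and TTGCNNAA (a C/EBP type) were in 0 of the 8 members, against 6.25% and 9.56% of all windows. No binding was measured here.

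Total counts were 30588350 to 39415700 per library, and 15930 genes had enough reads to be tested. Pkm, which checks the labels, had 1049 to 1281 CPM (counts per 1000000 reads, after scaling between libraries) in controls and 309 to 395 CPM in the cKO libraries. The 12 markers of dental epithelium were all detected. Their sum was 16543 to 18774 CPM in the controls and 12691 to 14411 CPM in the cKO libraries, so the groups did not overlap, and 0 of the 12 passed the test singly. Markers of other tissues were present as well. The 12 genes of dental mesenchyme and fibroblasts summed to 20100 to 31744 CPM in the controls and 18747 to 40659 CPM in the cKO libraries, with 0 of them at 0. Pkm cKO replicate 3 stood apart, with 2176 CPM of 5 skeletal muscle markers against 14.9 and 69.0 CPM in the other cKO libraries and 3.37 to 4.47 CPM in controls. It also held 849.8 CPM of the keratin gene Krt15, against 16.6 to 40.1 CPM elsewhere. The 10 immune markers summed to 65.4 to 68.2 CPM in controls against 117 to 201 CPM, and the 6 erythroid markers to 574 to 801 CPM against 267 to 353 CPM; their part in the enamel results was not tested. In bulk samples such as these, fewer cells of a type and less RNA per cell cannot be told apart.

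All 4 secretory-stage genes had lower levels in each cKO library than in any control, but by amounts that differed widely from library to library, and none passed the test. Amelx (NCBI gene 11704) had 18617, 15596 and 8564 CPM in control replicates 1 to 3 and 4136, 343 and 122 CPM in Pkm cKO replicates 1 to 3. Measured against the control mean, the cKO libraries held 29.0%, 2.41% and 0.856% of the Amelx level. Pkm cKO replicate 1 was thus the highest of the cKO libraries, and control replicate 3 the lowest of the controls. The group means were 14259 ± 5158 and 1534 ± 2256 CPM (SD, n = 3 each). The log2 fold change was -3.22, with a 95% interval of -7.40 to 0.97 (edgeR adjusted p 0.387). Amelx alone took 0.837% to 1.79% of all reads in controls and 0.0126% to 0.419% in cKO libraries. By its mean share of reads it ranked 2 of all genes in controls and 39 in cKO libraries.

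Enam (NCBI gene 13801) had the largest range of the members with more than a few reads. Controls 1 to 3 had 3749, 3450 and 759 CPM, whereas cKO libraries 1 to 3 had 378, 18.1 and 9.16 CPM. Its level thus spanned 4.94-fold among the controls and 41.2-fold among the cKO libraries. The log2 fold change was -4.30 (95% interval -9.41 to 0.82, edgeR adjusted p 0.349), and only 5 of the 15930 tested genes had a lower estimate. Ambn (NCBI gene 11698) came closest to an overlap. It had 2128, 2364 and 808 CPM in the controls and 744, 164 and 62.1 CPM in the cKO libraries. The lowest control was 1.09 times the highest cKO library, less than the spread within either group. Its log2 fold change was -2.45 (95% interval -5.40 to 0.50, edgeR adjusted p 0.355).

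Mmp20 (NCBI gene 30800), the protease of the secretory stage, had 297, 218 and 122 CPM in the controls and 78.9, 8.86 and 2.66 CPM in the cKO libraries (log2 fold change -2.82, 95% interval -6.66 to 1.02, edgeR adjusted p 0.405). As with Amelx, the highest cKO library was replicate 1 and the lowest control was replicate 3.

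**Figure D1:**
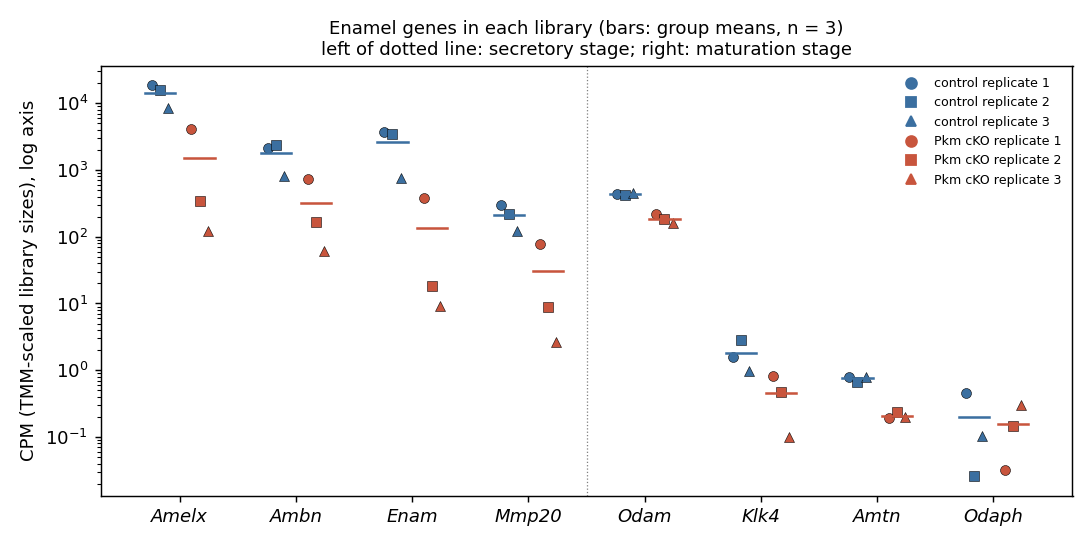
CPM of the 8 enamel genes in each of the 6 libraries on a log axis, with controls in blue, Pkm cKO in red and bars at the group means (n = 3 each). The secretory-stage genes spread widely among cKO libraries, Amelx from 122 to 4136 CPM, while Odam lies between 160 and 216 CPM there.

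The levels of Odam and Amtn were alike within each group, and each cKO library lay below every control. Odam (NCBI gene 69592), a protein of maturing ameloblasts and of the epithelium that attaches gum to tooth, had 443, 416 and 451 CPM in the controls and 216, 183 and 160 CPM in the cKO libraries. The lowest control was 1.93 times the highest cKO library, whereas the level spanned 1.08-fold among the controls and 1.35-fold among the cKO libraries. Odam fell by 1.23 on the log2 scale, with a 95% interval of -1.57 to -0.88 (edgeR adjusted p 0.0312), or 2.34 times lower. It was the 1 member of 8 that passed over all tested genes, of which 0.207% were called lower in the cKO group (0.552% in either direction). The call rested on having all 3 controls. The adjusted p was 0.239, 0.153 and 0.158 without control replicates 1, 2 and 3, in fits that called 0% of all genes (edgeR, 1532 to 2495 genes at an unadjusted p under 0.05). It was 0.0672 with limma-voom and 0.0621 with edgeR without robust estimation, which each called 0.0126% of genes lower, and over 15 alternatives it ranged from 1.5e-08 to 0.239, with log2 fold changes from -1.35 to -0.85.

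Amtn (NCBI gene 71421) was barely expressed, with 29, 26 and 31 reads in controls and 6, 8 and 8 reads in cKO libraries. In CPM these were 0.790, 0.673 and 0.804 against 0.194, 0.233 and 0.199. Summed over the group, the level was 0.755 CPM in controls (exact Poisson 95% interval 0.604 to 0.933) and 0.208 CPM in the cKO libraries (0.131 to 0.315). These intervals cover counting error only. The log2 fold change was -1.84 (95% interval -3.02 to -0.67, edgeR adjusted p 0.127) and did not pass. Amtn entered the test through its control reads alone, since 0 of the 3 cKO libraries reached the read minimum.

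Klk4 (NCBI gene 56640), the protease that clears the matrix in maturation, was also near the limit of detection at this age. It had 57, 111 and 38 reads in controls and 25, 16 and 4 reads in cKO libraries, or 1.55, 2.87 and 0.986 CPM against 0.808, 0.465 and 0.0993 CPM. The lowest control was 1.22 times the highest cKO library, within the spread of either group. Its log2 fold change was -1.99 (95% interval -3.58 to -0.41, edgeR adjusted p 0.196). Odaph (NCBI gene 381651) had 17, 1 and 4 reads in controls and 1, 5 and 12 reads in cKO libraries. It had too few reads to be tested, its groups overlapped, and no difference was detectable at this depth.

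**Figure D2:**
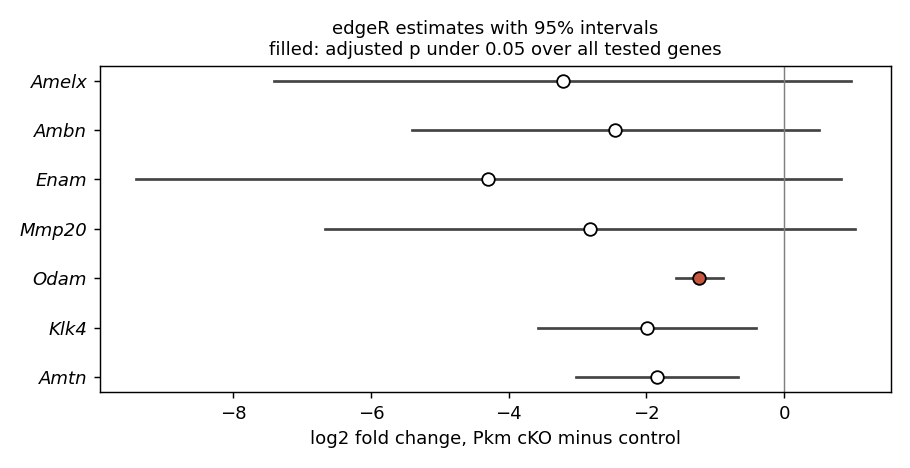
Log2 fold change of Pkm cKO minus control for the 7 tested enamel genes, with 95% intervals from edgeR; the filled point passed an adjusted p of 0.05. The intervals of the 4 secretory genes cross 0, while that of Odam runs from -1.57 to -0.88.

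Of the 8 members, 7 had cKO levels below those of all controls and Odaph overlapped. Among all tested genes 12.2% were lower without overlap, but the counts are not comparable for Amtn, which entered the test only through the group where it was higher. The 4 secretory genes had log2 fold changes from -4.30 to -2.45 with a median of -3.02, and the 3 tested maturation genes ran from -1.99 to -1.23, while the median of all tested genes was 0.0068. The secretory estimates were larger in size and less certain. The biological coefficient of variation, edgeR's measure of spread between replicates, was 1.08 for Amelx, 0.829 for Ambn, 1.23 for Enam and 1.03 for Mmp20. Between 99.0% and 99.7% of tested genes had a lower value than these genes, whereas 15.6% had a lower value than Odam, at 0.180. The value was 0.377 for Amtn (73.9% of genes lower) and 0.568 for Klk4 (94.7% lower). For Amtn, with few reads, the higher value does not show a wider spread of CPM than for Odam. The SD of Amtn CPM was 9.51% of the mean in controls and 10.1% in cKO libraries. For Odam it was 4.22% and 15.1%. The difference between the fold changes of the secretory and maturation genes was not tested.

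Leaving out single libraries moved the secretory genes and, less widely, Klk4, while Odam and Amtn moved little. Without Pkm cKO replicate 1 the log2 fold change of Amelx was -5.94 (edgeR adjusted p 0.0245) and that of Mmp20 was -5.21 (adjusted p 0.0477), so that both passed. In that fit Enam stood at -7.61 (adjusted p 0.0624) and Ambn at -3.97 (adjusted p 0.0725), and 1.98% of all tested genes were called lower. Without Pkm cKO replicate 3, the library rich in muscle transcripts, the estimates were -2.65 for Amelx, -1.95 for Ambn, -3.73 for Enam and -2.26 for Mmp20, and none of these passed, where 0.234% of all tested genes were called lower. Odam stayed between -1.35 and -1.12 whichever library was left out, and Amtn between -1.92 and -1.80. Klk4 moved from -1.99 to -2.69 without Pkm cKO replicate 1 and to -1.49 without control replicate 2, and it passed in neither fit (edgeR adjusted p 0.0844 and 0.545). With DESeq2, Enam passed (log2 fold change -4.28, DESeq2 adjusted p 0.0350) where edgeR did not call it, in a test that called 2.82% of genes lower.

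**Figure D3:**
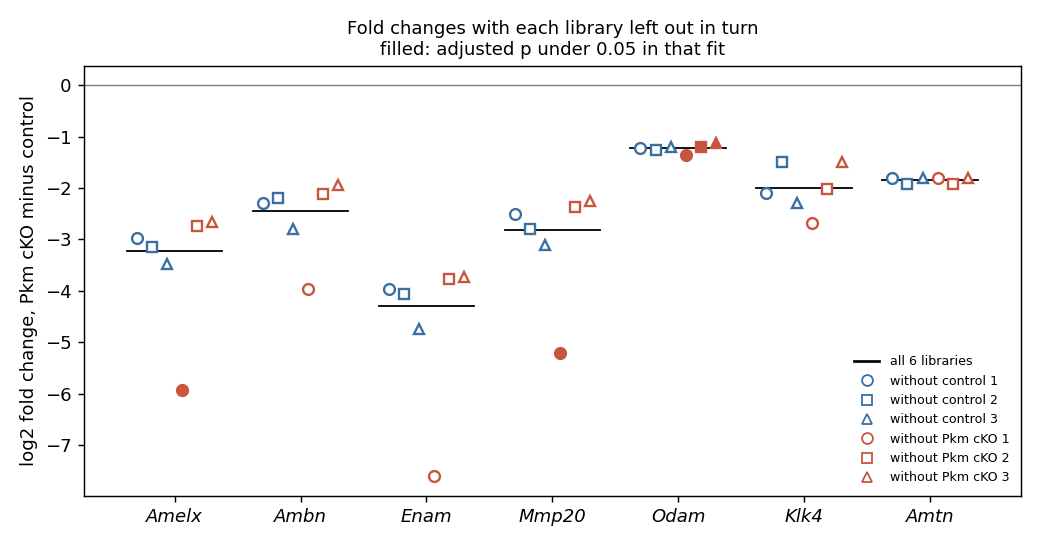
Log2 fold change of each tested enamel gene in edgeR fits that leave out 1 library; the black line is the estimate from all 6 libraries and filled points passed an adjusted p of 0.05 in that fit. Removing Pkm cKO replicate 1 moves Amelx to -5.94 and Enam to -7.61, while Odam stays between -1.35 and -1.12.

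Ratios within a library do not depend on how libraries were scaled. The Amelx to Mmp20 ratio of CPM was 62.6, 71.5 and 70.3 in controls and 52.4, 38.7 and 45.9 in cKO libraries. Each cKO ratio lay below every control, so Mmp20 was less reduced than Amelx in each cKO library. The shift was small beside the 33.9-fold span of Amelx itself among the cKO libraries. The Amelx to Enam ratio was 4.97, 4.52 and 11.3 in controls against 10.95, 18.9 and 13.3, so that control replicate 3 lay among the cKO values. The Amelx to Ambn ratio was 8.75, 6.60 and 10.6 in controls and 5.56, 2.09 and 1.97 in cKO libraries. Ambn was thus also less reduced than Amelx in each cKO library. The Amelx to Odam ratio was 42.1, 37.5 and 19.0 in controls and 19.2, 1.87 and 0.764 in cKO libraries. In this ratio of a single secretory gene to a single maturation gene the groups overlapped. Control replicate 3 and Pkm cKO replicate 1 had nearly the same ratio.

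Odontoblasts, which lie across from the ameloblasts and make dentin, express Dspp strongly. Dspp had 4617, 3497 and 1912 CPM in control replicates 1 to 3 and 2877, 588 and 112 CPM in Pkm cKO replicates 1 to 3. Its groups overlapped, with a log2 fold change of -1.49 (SE 1.25, edgeR adjusted p 0.612). Its Pearson r with the mean log2 CPM of the secretory genes was 0.955 over all libraries. The Amelx to Dspp ratio was 4.03, 4.46 and 4.48 in controls and 1.44, 0.583 and 1.08 in cKO libraries. Among controls Amelx and Dspp therefore kept a nearly fixed ratio although the level of Amelx spanned 2.17-fold. In all 3 cKO libraries Amelx was lower relative to Dspp than in any control. The 4 odontoblast markers summed to 2557 to 5480 CPM in the controls and 390 to 3713 CPM in the cKO libraries, which overlapped, with 0 of them at 0. Their part in the enamel result was not tested beyond these ratios.

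**Figure D4:**
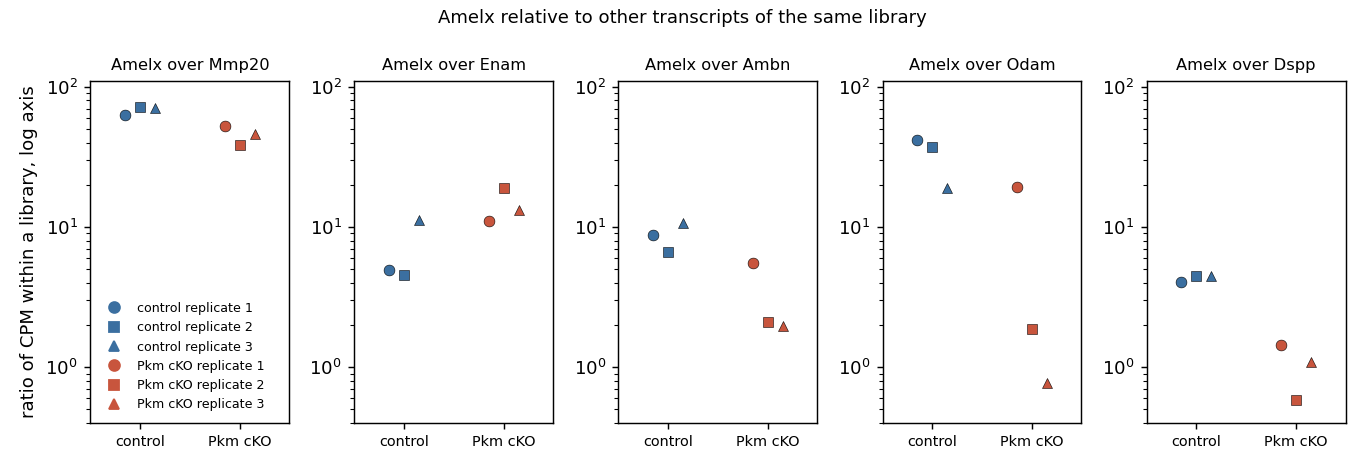
Ratio of Amelx CPM to that of Mmp20, Enam, Ambn, Odam and Dspp in each library, on a shared log axis with controls in blue and Pkm cKO in red. The ratio to Mmp20 lies between 38.7 and 71.5 in all libraries, the ratio to Odam is as low as 0.764 in Pkm cKO replicate 3, and the ratio to Dspp is 4.03 to 4.48 in the controls.

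Since the summed epithelial markers were lower in the cKO libraries, the members were also expressed per 1000 reads of those 12 markers. Amelx then had 992, 943 and 487 reads in controls and 326, 23.8 and 8.81 in cKO libraries, and the groups still did not overlap. Odam had 23.6, 25.1 and 25.7 against 16.995, 12.7 and 11.5, also without overlap. Ambn did overlap on this scale, since Pkm cKO replicate 1 had 58.7 reads and control replicate 3 had 46.0. Klk4 overlapped as well, with 0.0636 in Pkm cKO replicate 1 and 0.0561 in control replicate 3. When edgeR was run with libraries scaled to these markers, the median of all genes shifted to 0.38 on the log2 scale. Odam then fell by 0.85 (edgeR adjusted p 0.0243), where 0.251% of genes were called lower, and Amelx stood at -2.76 (adjusted p 0.297). The 12 markers include Krt15, which gave 849.8 CPM of the 13853 CPM marker sum in Pkm cKO replicate 3. In the other libraries Krt15 had 16.6 to 40.1 CPM. Scaling without Krt15 was not tested.

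**Figure D5:**
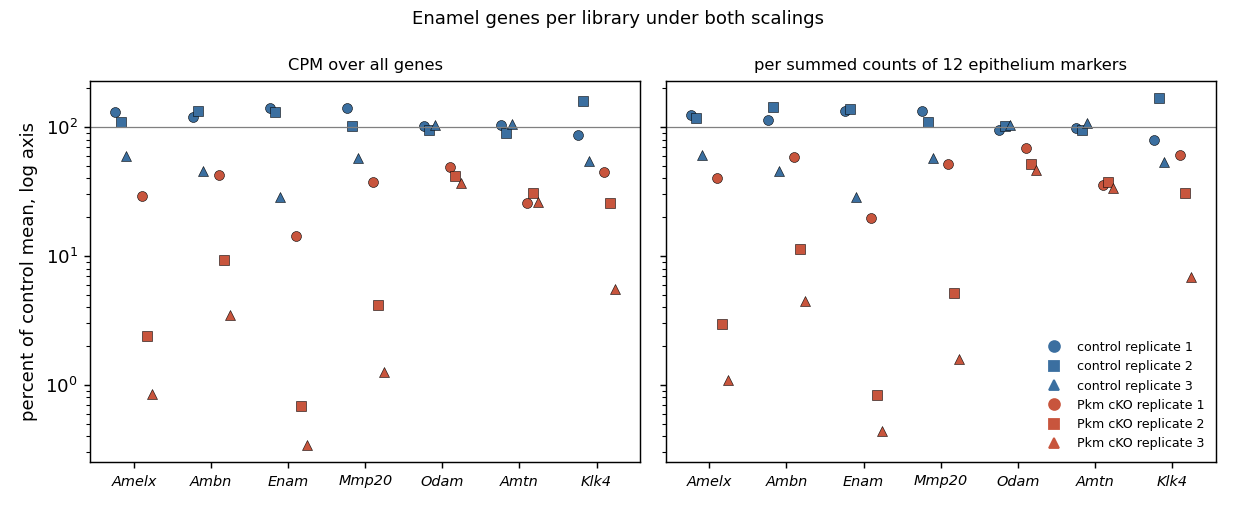
Each library's value as a percent of the control mean for 7 enamel genes, as CPM on the left and per summed reads of 12 dental epithelium markers on the right, on log axes. Odam in cKO libraries is at 36.6% to 49.4% of the control mean as CPM, and Ambn and Klk4 overlap between groups only on the right.

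Per kilobase of exon, the order of the members changed between libraries. In controls the mean was 14273 CPM per kilobase for Amelx, followed by Ambn (921), Enam (483), Odam (317), Mmp20 (64.6), Klk4 (1.44), Amtn (0.739) and Odaph (0.0563). The control ranges of Ambn (421 to 1232) and Enam (138 to 683) overlapped, although Ambn was above Enam in each control library. Enam was above Odam in control replicates 1 and 2 and below it in control replicate 3. In the cKO group the order of means was Amelx (1535), Ambn (169), Odam (135), Enam (24.6) and Mmp20 (9.17), with Klk4, Amtn and Odaph below 1 CPM per kilobase. Ambn was above Odam only in Pkm cKO replicate 1, at 388 against 157 CPM per kilobase. It was below Odam in replicates 2 and 3, at 85.7 against 133 and 32.4 against 116. In Pkm cKO replicate 3 Amelx and Odam were close, at 122 and 116 CPM per kilobase. Of all member reads per kilobase, Amelx made up 87.5% to 90.3% in controls and 86.6%, 60.4% and 44.7% in cKO replicates 1 to 3. Odam made up 1.54% to 3.45% in controls and 3.28%, 23.4% and 42.5% in the cKO libraries.

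Across the 6 libraries the log2 CPM of the 4 secretory genes ran closely together, with Pearson r from 0.987 to 0.998 between any pair of them, and Odam and Amtn correlated at 0.974. Odam and the secretory genes correlated at 0.875 to 0.915, and Amtn and the secretory genes at 0.763 to 0.811. Klk4, a maturation gene, correlated at 0.930 to 0.967 with the secretory genes, at 0.839 with Odam and at 0.739 with Amtn. These are descriptions over 6 points that share the genotype difference and their library preparation. The 10 genes most like the mean of the secretory members (r of 0.994 to 0.999, out of 1518 candidates) were Snap91, Clip2, Ckmt1, Papln, St8sia1, Fxyd4, Nebl, Stac3, Calb1 and Tmem150a. Calb1, the calcium-binding protein calbindin, had 2032, 1467 and 1068 CPM in the controls and 590, 129 and 47.1 CPM in the cKO libraries. Ckmt1, a mitochondrial creatine kinase, had 450, 355 and 248 CPM against 190, 71.5 and 39.2 CPM. None of the 10 passed the test singly in edgeR. An r above 0.9 was reached by 15.3% of the candidates, so closeness to the secretory genes was common in these libraries. The 5 genes most like Odam (r of 0.981 to 0.993) were Rbfox3, Hint3, Smim8, Scnn1b and Cntnap2. Scnn1b, a subunit of the epithelial sodium channel, passed, with 54.8 to 59.7 CPM in the controls and 20.6 to 33.4 CPM in the cKO libraries (edgeR adjusted p 0.0496), as did Cntnap2 (edgeR adjusted p 0.0169). Over all tested genes 0.207% were called lower. Because the 5 genes were picked for likeness to Odam, which separates the groups, such calls follow largely from the choice.

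Gene neighbours gave a local comparison. In the RefSeq order Amtn, Ambn and Enam are adjacent protein-coding genes on chromosome 5. Odam and Odaph are on it as well, Odam nearer and Odaph farther. Their promoter windows begin at bases 87884890 and 91987353, against 88375988 for Amtn. Csn3, a casein gene of the same family that lies close to Odam, stood at 4.203 to 4.33 CPM in the controls and 0.668 to 1.49 CPM in the cKO libraries (log2 fold change -2.12, edgeR adjusted p 0.0574). Beyond Enam, Utp3 averaged 43.1 CPM in the controls and 52.1 CPM in the cKO libraries (log2 fold change 0.27, SE 0.157) and Rufy3 averaged 22.4 and 24.9 CPM (0.15, SE 0.170). Next to Odaph, the kinase gene Cdkl2 fell by 1.10 on the log2 scale (edgeR adjusted p 0.0494), where 0.207% of all tested genes were called lower. Other neighbours of Odaph lay on both sides. From controls to cKO libraries, mean CPM went from 153 to 104.5 for Parm1, 76.2 to 72.2 for Rchy1 and 1.89 to 4.67 for Btc. Near Amelx it went from 19.7 to 15.8 for Hccs, 43.25 to 39.2 for Msl3 and 9.03 to 15.3 for Mid1. None of these other neighbours passed. Amelx lies inside Arhgap6 on the opposite strand and overlaps 0 of its exons. Arhgap6 had 0.756 to 3.13 CPM over the 6 libraries, against 122 CPM or more of Amelx. The neighbours were looked at after the members' values were known.

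Of 20 genes of amelogenesis imperfecta or enamel mineral handling outside the members, 19 were tested, 0 passed, and 16 were below 0, with a median log2 fold change of -0.65 against 0.0068 for all tested genes. In 7 of the 19 the groups did not overlap, all lower, while 12.2% of all tested genes were lower without overlap. Among those with the lowest p were Rogdi (log2 fold change -1.21, SE 0.252), the laminin gene Lamb3 (-0.65, SE 0.183) and the integrin gene Itgb6 (-1.04, SE 0.296). Their edgeR adjusted p ran from 0.0699 to 0.129. The product of Lamb3 anchors epithelium to its basement membrane. Acp4 had the lowest estimate of the 19 (log2 fold change -2.86, SE 0.843, edgeR adjusted p 0.201). It had 137, 139 and 59.4 CPM in control replicates 1 to 3 and 31.6, 10.2 and 4.67 CPM in Pkm cKO replicates 1 to 3.

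Transcription factors of enamel epithelium came next. Of 18 listed, 17 were tested and 0 passed in edgeR, with 7 below and 10 above 0 and a median of 0.16. Sp6, a zinc-finger factor needed for ameloblasts, had 1437 to 2159 CPM in the controls and 621 to 1437 CPM in the cKO libraries, and Dlx3 had 581 to 624 CPM against 264 to 563 CPM; both were given for their known role in enamel, after their values were seen. By p, the lowest were Cebpd (log2 fold change 1.31, SE 0.295), Foxo1 (-0.89, SE 0.206), Sox21 (-1.65, SE 0.399) and Runx2 (0.71, SE 0.226), with edgeR adjusted p from 0.0796 to 0.154. Sox21, a factor that keeps ameloblasts from a hair-like fate, had 134, 106 and 81.4 CPM in the controls and 54.3, 29.5 and 18.3 CPM in the cKO libraries.

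The members' relatives lay on both sides of 0. Of 10 other genes listed with the calcium-binding phosphoprotein family, Sparc and Sparcl1 among them as relatives, 7 were tested and 0 passed. Of the 7 tested, 4 were below and 3 above 0, with a median of -0.26, and Dspp, given above, was below 0. Ibsp, the bone sialoprotein gene, stood at 99.8 ± 12.5 CPM in the controls and had 116 to 219 CPM in the cKO libraries (a log2 difference of 0.86, SE 0.232, edgeR adjusted p 0.113). Spp1, the osteopontin gene, had 38.6 to 81.4 CPM against 75.6 to 462 CPM (edgeR adjusted p 0.265). Dmp1, a gene of odontoblasts and osteocytes, had 314 to 572 CPM against 47.8 to 319 CPM. Among 20 other kallikrein and matrix metalloproteinase genes 11 were tested, 1 was below 0 and 10 above, with a median of 0.73, opposite in sign to Mmp20 and Klk4. Mmp2, a gelatinase of stromal cells, was the 1 that passed and rose from 109 ± 15.9 CPM in controls to 198 to 348 CPM in the cKO libraries (a log2 difference of 1.31, SE 0.213, edgeR adjusted p 0.0444), where 0.345% of all tested genes were called higher. Klk13 (2.19, SE 0.414), Mmp11 (0.73, SE 0.170) and Mmp9 (2.22, SE 0.548) followed by p, and Klk10 (-1.27, SE 0.359) was the 1 of the list below 0. Klk15, which lies beside Klk4 and was not on the list, was below 0 as well, with overlapping groups and a mean of 1.15 CPM in the controls and 0.316 CPM in the cKO libraries (a log2 difference of -1.88, SE 0.891, edgeR adjusted p 0.314). Beside these stand the mesenchymal markers, of which 8 of 12 were higher without overlap, against 11.2% of all tested genes, and their part in the Mmp values was not tested.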

How the data were processed

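The table the authors deposited holds unnormalized counts for each gene in 6 libraries. The submitters' processing notes name fastp, HISAT2 and build mm39. How reads were assigned to genes, whether strand was used, and which annotation and versions applied: not given in the sources used here. Reads of overlapping or antisense genes cannot be told apart. Groups and replicate numbers came from the labels, and each column was matched to its sample by genotype and number.

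Counts were filtered with filterByExpr (about 10 reads in a library of median size, in 3 libraries), scaled by TMM and compared with edgeR 4.0.16 in R 4.3.3 (quasi-likelihood test, robust estimation, two-sided, Benjamini-Hochberg over all tested genes, threshold 0.05). Of the 8 members 7 passed the filter. Log2 fold changes are cKO minus control, SE is the fold change over the square root of F, and log2 CPM used a prior count of 2. With 30588350 to 39415700 counts per library, counting error was small for all members but Amtn, Klk4 and Odaph. Alternatives used DESeq2 1.42.0, limma 3.58.1 (voom), other scalings and filters, a replicate block and each library left out. Exon lengths came from GENCODE M21 (GRCm38), and promoters and gene order from RefSeq GRCm38.p6, which matched all 8 members; that build differs from the one used for counting. Scripts were tested on simulated data.

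The members, gene lists and markers were chosen with earlier results of these data known. By rule, named genes were the members, Pkm, Arhgap6, Dspp, genes of the 4 lists of enamel, transcription factor, family and protease genes that passed or had the 4 lowest p (1 of these is not reported here), and the 10 and 5 genes most like the secretory mean and Odam (mean of at least 5 CPM, SD of log2 CPM of at least 0.5). Krt15, Acp4, Sp6, Dlx3, Klk10 and the members' chromosomal neighbours were named after their values were seen.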

Additional observations from a re-analysis of the deposited data

How the results depend on the processing

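All 7 tested members were below 0 under every alternative in which they could be tested (15 each, or 14 for Amtn and Klk4). The secretory estimates moved most with all 6 libraries kept: with limma-voom and with the replicate block, Amelx stood at -4.61 and -4.73 against -3.22, Enam at -5.84 in both against -4.30, and Mmp20 at -4.14 and -4.02 against -2.82; none of these passed, and the cause was not tested. The number of members called was 1; it was 2 with DESeq2, 0 with limma-voom and 0 with edgeR without robust estimation (7 members at an unadjusted p under 0.05 in each of these), and 0 to 3 with 1 library left out (2 to 7 unadjusted). Over all genes 88 were called; the count was 55 with DESeq2 size factors, 1585 with scaling to epithelial markers, 518 with no filter, 1118 with DESeq2, and 2 with limma-voom or without robust estimation. It was 0 without any 1 control (edgeR, 1532 to 2495 genes at an unadjusted p under 0.05) and 640 without Pkm cKO replicate 1 and 186 without replicate 2. DESeq2 size factors called 16 genes lower and 39 higher, upper-quartile scaling 18 and 57, and epithelial scaling 40 and 1545, against 33 and 55. With the replicate number as a block 708 genes were called, and 1 member; the labels do not say that numbers mark shared litters, and the deviations of same-numbered samples correlated at 0.235, 0.015 and 0.215, so a pairing was not established. Replicates 1 and 3 of each group correlated best with their own number, and those numbered 2 did not, as a hint from the data, not the design. Odaph could be tested only without the filter (log2 fold change -0.29) or with some libraries left out, where its sign varied. Depth limited Amtn, Klk4 and Odaph, with at most 111 reads in a library.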
